A study of Sus scrofa with 20 samples.

Results

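The 14 muscle samples described here were selected on their own readout, the level of 4 interferon-stimulated genes, out of 20 arrays of longissimus, a long back muscle, from female pigs. For each gene the probe set of highest mean was regressed over the 20 arrays on the mean signal of the array's background control probe sets, and the residual was kept. The mean residual of IFIT1, IFIT3, MX1 and ISG15 was the score of an array, and the 7 arrays of highest score were compared with the 7 of lowest score, leaving 6 in the middle. The score, and not the labels, chose the arrays, so the differences of the 4 genes are given as a description with no test. The study had 10 animals of low and 10 of high residual feed intake (RFI), the feed eaten beyond what growth and maintenance are predicted to need. All were female, tissue and sex were the only other characteristics given, and no infection, vaccination or interferon treatment is named in the labels. Each animal was measured on 1 single-colour Affymetrix Snowball array, and values are log2 signals.

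Interferons are secreted when a cell senses foreign nucleic acid. Type I interferon binds the receptor IFNAR1 and IFNAR2, which signals through the kinases JAK1 and TYK2 to STAT2 and IRF9, and these help to switch on interferon-stimulated genes. Those genes include the IFIT proteins, which bind viral RNA, the MX GTPases, which block incoming viruses, and ISG15, a ubiquitin-like tag that is attached to other proteins. Skeletal muscle fibres carry little of the antigen presentation machinery at rest and raise it under interferon, and macrophages and other immune cells between the fibres respond to it too.

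The score ran from 0.80 to -0.42 on the log2 scale. The 7 highest arrays had scores of 0.80, 0.30, 0.30, 0.28, 0.26, 0.10 and 0.07, and the 7 lowest had -0.16, -0.22, -0.23, -0.27, -0.30, -0.35 and -0.42. The largest step in the scores set apart the top array, high RFI replicate 8, whose score was 0.80 where the next was 0.30. A smaller step lay within the high-score arrays, between 0.26 and 0.10. The high-score arrays at 0.10 and 0.07 lay nearer to the first array of the middle than to the other high-score arrays. The last array taken as high, high RFI replicate 1, had a score of 0.075 and the first left in the middle, high RFI replicate 7, had 0.053. At the lower boundary the first array taken as low, high RFI replicate 2, had -0.16 and its neighbour in the middle, high RFI replicate 6, had -0.14. The high-score arrays were 3 of low RFI and 4 of high RFI, and the low-score arrays were 5 of low RFI and 2 of high RFI. The 10 low-RFI arrays had a mean score of -0.09 ± 0.27 (SD) and the 10 high-RFI arrays one of 0.09 ± 0.30 (SD), and their ranges overlapped between -0.22 and 0.30.

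MX1 and IFIT1 spread the arrays most. Background-adjusted IFIT1, a sensor of viral RNA ends, had a lowest, median and highest signal of 2.80, 2.98 and 3.72 in the high-score arrays and of 2.07, 2.26 and 2.38 in the low-score arrays, so the groups did not overlap. MX1 ran from 4.01 over a median of 4.40 to 4.94 in the high-score arrays and from 3.43 over 3.59 to 4.26 in the low-score arrays. The MX1 ranges overlapped, with 5 of 7 high-score arrays above every low-score array. IFIT3, the partner that stabilises IFIT1, ran from 3.08 over 3.29 to 3.88 and from 2.52 over 3.01 to 3.41. ISG15 ran from 5.41 over 5.61 to 6.09 and from 4.88 over 5.40 to 5.70. The ranges of IFIT3 and ISG15 overlapped widely, and only 3 and 2 of the 7 high-score arrays lay above every low-score array.

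The means differed by 0.89 for IFIT1, 0.75 for MX1, 0.43 for IFIT3 and 0.27 for ISG15. Among themselves the 4 genes moved together loosely. Over the 20 arrays the pairwise correlation of their adjusted values was highest between IFIT1 and MX1, at 0.56, and lowest between IFIT3 and MX1, at 0.20. These points share an array, and the 4 genes were picked for this pattern. IFIT1 and IFIT3 were dim, with means of 2.63 and 3.18 below the mean background control signal of 3.64, while MX1 and ISG15 lay above it. A further probe set of IFIT1 differed by 0.50 with no overlap, but its mean of 1.70 lay below the filter of 1.75 used for the tests. The other probe set of IFIT3 differed by -0.05 and the other probe sets of ISG15 by 0.14 and 0.19. Correlations with the score were 0.755 for that IFIT1 probe set, -0.125 for that of IFIT3, and 0.149 and 0.204 for those of ISG15.

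**Figure D1:**
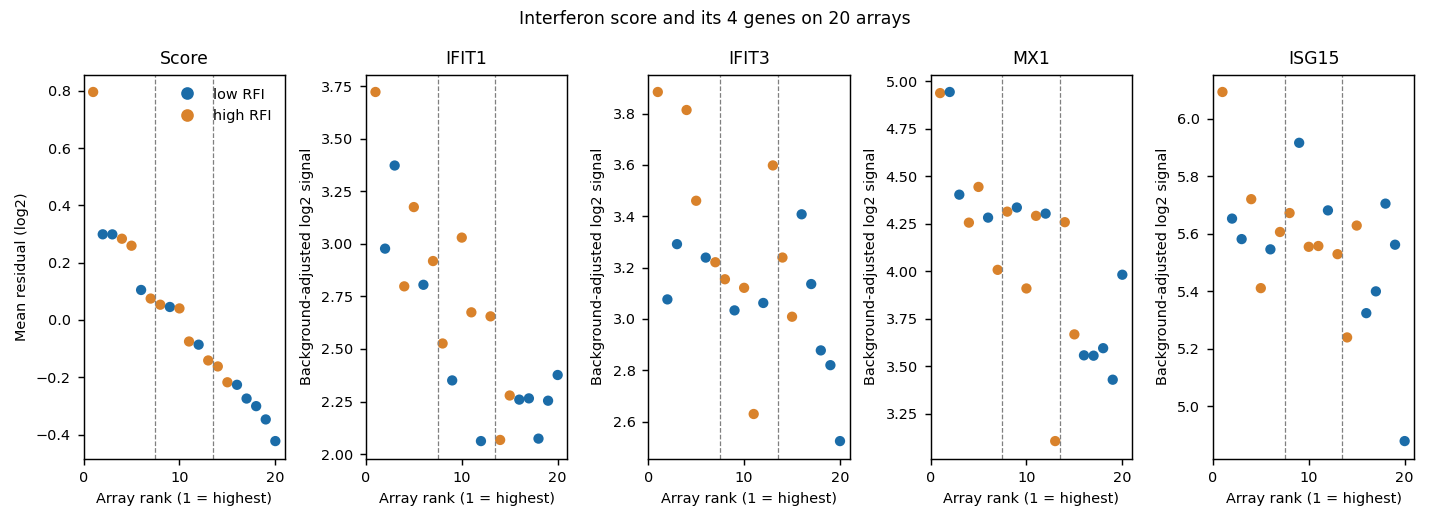
The 20 arrays ranked by score (horizontal axis, 1 is the highest) against the score, the mean residual in log2 units, and against the background-adjusted log2 signal of its 4 genes; colour gives the RFI group and dashed lines bound the 7 highest and 7 lowest arrays. The top array reads 3.72 for IFIT1 and 6.09 for ISG15, and low- and high-RFI arrays lie at both ends.

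The animals' RFI group, which played no part in the choice, was tested against the 4 genes over all 20 arrays. In low RFI minus high RFI, IFIT1 differed by -0.30 ± 0.19 (SE), IFIT3 by -0.27 ± 0.14, MX1 by -0.08 ± 0.20 and ISG15 by -0.08 ± 0.11. None passed (limma, Benjamini-Hochberg adjusted p = 1 for each). The 95% confidence intervals, -0.69 to 0.08 for IFIT1 and -0.50 to 0.34 for MX1, leave room for differences in either direction. In that comparison limma called 0 of 33405 probe sets (percent called 0) with a smallest adjusted p of 0.316, and 1524 had an unadjusted p under 0.05.

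No tested probe set passed between high-score and low-score muscle, and the probe sets of the 4 score genes were left out of the test. Limma called 0 of 33398 probe sets (percent called 0) at an adjusted p under 0.05, with a smallest adjusted p of 0.999, and an exact rank sum test called 0. Unadjusted p-values under 0.05 were found for 1518 probe sets by limma (715 with a higher and 803 with a lower signal in high-score muscle) and for 1182 by the rank sum test, while 5% of the probe sets tested is 1670. The 95% confidence intervals reached a median of 0.29 to either side, and 97.3% left out a 2-fold difference of the signal. The values below are therefore differences that did not pass, given in high-score minus low-score direction with their standard error, and each unadjusted p comes from limma. Since the same arrays define the groups by interferon-stimulated genes, higher values of co-regulated genes carry part of the choice with them.

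The 10 lists of interferon genes, without the 4 score genes, had 145 members on the array, of which 133 passed the filter on dim probe sets and 0 passed the test. Of these 133, 80 were higher and 53 lower in high-score muscle, with a median difference of 0.04, beside 48.0% higher and a median of -0.01 over all 12205 represented genes. An unadjusted p under 0.05 was reached by 7 of the 133, 5.26%: DDX58, IFI44, IFI6 and B2M higher, and IFNAR2, IRF3 and CNP lower. Over the 12205 represented genes it was reached by 241 higher and 246 lower, and over all tested probe sets by 4.54%. The 12 members below the filter included the ligands IFNG and IFNE, whose signals were too dim to test. Since no member passed the test, the arrays are called high-score and low-score here and not by an interferon state. The counts cannot settle that label, because co-regulated members carry part of the choice of arrays.

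Antiviral effectors, the proteins that carry out the block to viral growth, had 22 of 36 tested members higher, with a median difference of 0.07 and a range from -0.32 to 0.55. The mean level of the 36 genes ran from 4.16 over a median of 4.25 to 4.32 in high-score arrays and from 4.05 over 4.17 to 4.27 in low-score arrays, so the groups overlapped. Over the 20 arrays this mean had a correlation with the score of 0.52, and of 0.41 without high RFI replicate 8. A single correlation with the score above 0.4 was found for 5 of the 36 and for 11 of the 133 interferon members. The share over all genes was not counted, so these counts have no base to be read against. The mean pairwise correlation among the 36 was 0.03, beside 0.002 over all represented genes.

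IFI44, a cytoplasmic protein induced by type I interferon, gave a lowest, median and highest signal of 1.68, 2.76 and 3.32 in high-score arrays and of 1.65, 2.17 and 2.40 in low-score arrays. Its difference was 0.55 ± 0.21 (unadjusted p = 0.0166), with 6 of 7 high-score arrays above the low-score median, on a signal below the background control mean. IFI6, a small membrane protein that hinders viral replication compartments, ran from 6.05 over 6.93 to 7.46 and from 6.35 over 6.53 to 6.82. It was well above background, its difference was 0.36 ± 0.17 (unadjusted p = 0.0442), and both its lowest and its highest array had a high score. Without high RFI replicate 8, its highest array, the difference was 0.27.

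OAS1 and OAS2 make the short adenylate chains that activate the RNA-cutting enzyme RNase L. OAS2 ran from 4.80 over 5.88 to 5.93 in high-score arrays and from 4.68 over 5.16 to 5.85 in low-score arrays, a difference of 0.43 ± 0.21 with all 3 of its probe sets higher. OAS1 ran from 3.69 over 5.48 to 6.17 and from 3.82 over 4.72 to 5.81, a difference of 0.43 ± 0.36. High RFI replicate 4 was low for both in an otherwise high group, and the highest values of both, 6.88 for OAS1 and 6.68 for OAS2, came from low RFI replicate 7, an array of the middle. With the 5 highest against the 5 lowest arrays OAS1 turned to -0.01. Its difference was 0.70 without high RFI replicate 4, 0.26 without high RFI replicate 2 and 0.20 as the mean over its 3 probe sets.

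RSAD2, the radical enzyme viperin, ran from 4.14 over 4.42 to 4.90 and from 3.57 over 4.31 to 4.64, a difference of 0.29 ± 0.17. MX2, the nuclear relative of MX1, differed by 0.24 ± 0.16, TDRD7, which restrains autophagy used by viruses, by 0.24 ± 0.18, EPSTI1 by 0.18 ± 0.13 and PARP12, an RNA-binding ADP-ribosyltransferase, by 0.16 ± 0.11. All these ranges overlapped. Without low RFI replicate 10 the difference was 0.18 for RSAD2, 0.10 for TDRD7 and 0.09 for PARP12. Differences nearer 0 were found for IFIT2 and IFIT5, relatives of IFIT1, and for OASL: IFIT2 differed by -0.06 ± 0.30, IFIT5 by -0.13 ± 0.25 and OASL, an OAS relative that enhances RIG-I, by -0.002 ± 0.16. The lower end of the list was CNP, a 2′,3′-cyclic nucleotide phosphodiesterase best known from myelin, at -0.32 ± 0.14 (unadjusted p = 0.0367), and STX11, a vesicle fusion protein of immune cells, at -0.22 ± 0.13.

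**Figure D2:**
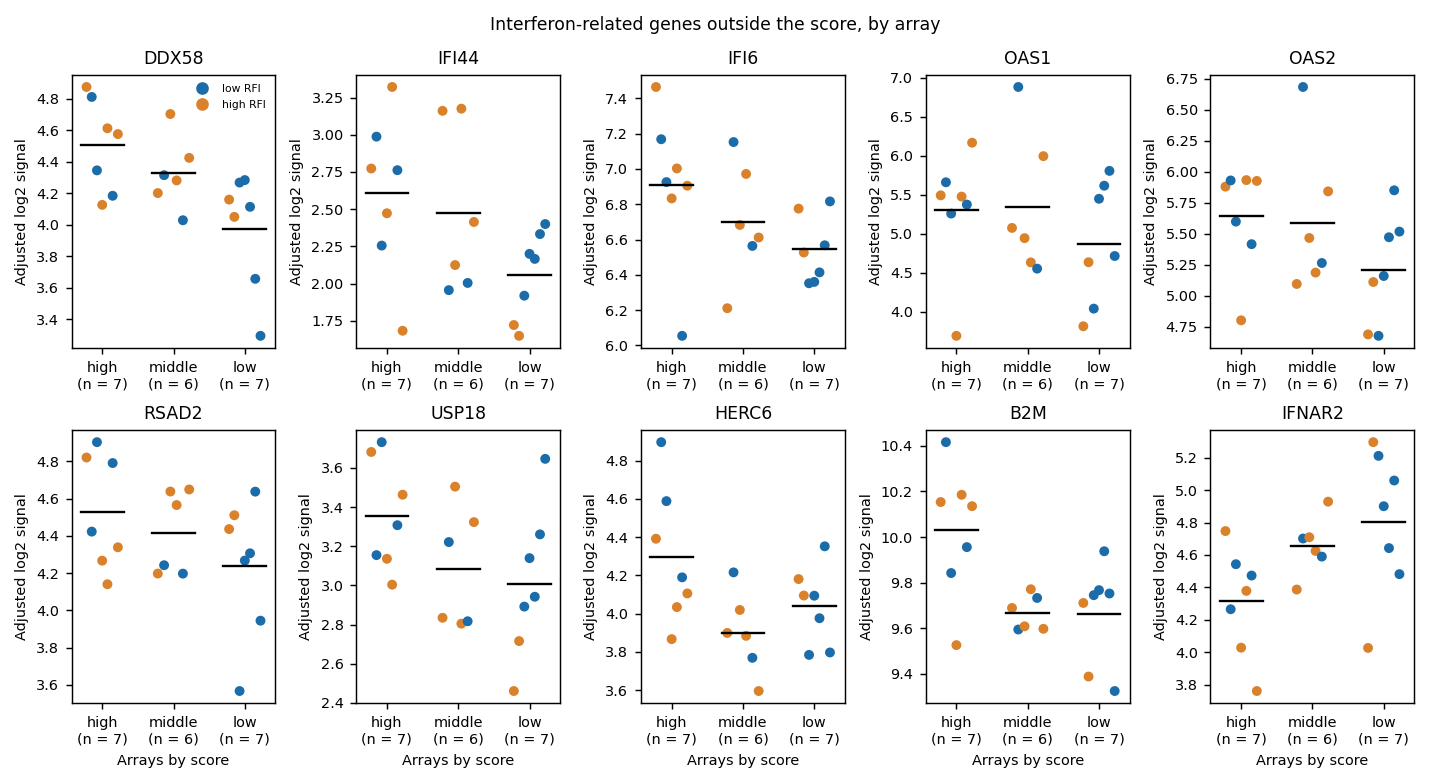
Background-adjusted log2 signal of 10 interferon-related genes outside the score on each array, by score group (7 high, 6 middle, 7 low); colour gives the RFI group and black bars are group means. High- and low-score points overlap in every panel, with the means 0.53 apart for DDX58 and -0.49 for IFNAR2.

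Among the nucleic acid sensors the members were split, 7 of 15 higher with a median of -0.02. DDX58, the cytoplasmic RNA sensor RIG-I that is itself interferon-induced, had the smallest p of all interferon genes. It ran from 4.13 over 4.58 to 4.88 in high-score arrays and from 3.29 over 4.11 to 4.28 in low-score arrays. Its difference was 0.53 ± 0.17 (limma unadjusted p = 0.00553, adjusted p = 0.999), and 7 of 7 high-score arrays lay above the low-score median although the ranges overlapped. The 2 arrays of lowest score, low RFI replicates 8 and 3, read 3.29 and 3.66, below every other array. Of its 3 probe sets 2 were higher, and the difference of DDX58 was 0.26 as the mean over the 3. The other RNA helicases of this family differed by 0.16 ± 0.12 for IFIH1, the sensor MDA5, and by -0.15 ± 0.10 for DHX58, their regulator LGP2. The adaptor of DNA sensing, TMEM173 or STING, differed by -0.19 ± 0.17 and the Toll-like receptor adaptor MYD88 by -0.17 ± 0.19. Single arrays moved these values: TMEM173 was -0.09 without low RFI replicate 1, MYD88 ran from -0.07 without high RFI replicate 1 to -0.28 without high RFI replicate 2, and IFIH1 was 0.25 without low RFI replicate 1.

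Most tested receptors and signalling genes of the pathway did not follow the score genes upwards. Of 6 tested ligand and receptor genes 2 were higher, with a median of -0.17 and a highest difference of 0.23. Of 13 signalling genes 5 were higher, with a median of -0.03 and a highest difference of 0.41. Within low RFI 5 of these 13 were higher, and within high RFI 8. IFNAR2, the long-tailed chain of the type I receptor, ran from 3.76 over 4.38 to 4.75 in high-score arrays and from 4.03 over 4.90 to 5.30 in low-score arrays. Its difference was -0.49 ± 0.19 (unadjusted p = 0.0214), and 0 of 7 high-score arrays lay above the low-score median. IRF3, the factor that first switches on interferon genes after sensing, ran from 6.41 over 6.52 to 6.65 and from 6.44 over 6.75 to 6.92, a difference of -0.20 ± 0.09 (unadjusted p = 0.0407) with both probe sets lower. IRF8, a factor of myeloid cells, differed by 0.20 ± 0.10, and the parts of the type I complex by -0.15 ± 0.13 for STAT2 and -0.03 ± 0.09 for IRF9.

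The small set for ISG15 conjugation had all 4 tested members higher, with a median of 0.19 and a lowest difference of 0.003. Without high RFI replicate 8, 3 of the 4 were higher, and 2 were higher within both RFI groups. USP18, the protease that removes ISG15 and dampens the receptor, ran from 3.004 over 3.31 to 3.73 in high-score arrays and from 2.46 over 2.94 to 3.65 in low-score arrays. Its difference was 0.35 ± 0.17, with 7 of 7 high-score arrays above the low-score median. HERC6, a ligase that attaches ISG15 in mice, ran from 3.87 over 4.19 to 4.90 and from 3.78 over 4.09 to 4.35, a difference of 0.26 ± 0.15. UBA7, the activating enzyme of ISG15, differed by 0.12 ± 0.10. Without low RFI replicate 6 the differences of HERC6 and UBA7 were 0.16 and 0.05. USP18 and UBA7 had means below the background control mean.

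The largest differences among feedback inhibitors and cytokines were negative. Of 9 tested inhibitors 3 were higher, with a median of -0.05. SOCS3, which blocks cytokine receptor kinases, ran from 5.60 over 6.14 to 7.70 in high-score arrays and from 5.65 over 7.22 to 7.88 in low-score arrays, a difference of -0.56 ± 0.39 with all 5 probe sets lower. SOCS1 differed by -0.22 ± 0.15 and CD274, the checkpoint ligand PD-L1, by 0.21 ± 0.11. Of 14 chemokines and cytokines 10 were higher, with a median of 0.03 but a mean of -0.02. IL6, an inflammatory cytokine that muscle also releases, differed by -0.60 ± 0.30, CCL2, a monocyte attractant, by -0.44 ± 0.31, FAS, a death receptor, by -0.33 ± 0.19 and CXCL16 by 0.23 ± 0.11. High RFI replicate 8, the array of highest score, was the highest of the high-score arrays for SOCS3 and IL6, and without it their differences were -0.78 and -0.79. Without low RFI replicate 10 IL6 differed by -0.37 and CCL2 by -0.27, and CCL2 by -0.21 without high RFI replicate 1.

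Class I antigen presentation, which shows cellular peptides to killer T cells, had the highest share of higher members among the lists with at least 10 tested, 16 of 18, and a median of 0.16. The mean level of the 18 genes ran from 6.30 over 6.36 to 6.53 in high-score arrays and from 6.14 over 6.19 to 6.40 in low-score arrays, overlapping. B2M, the light chain of every class I molecule, ran from 9.53 over 10.14 to 10.42 and from 9.32 over 9.74 to 9.94. Its difference was 0.37 ± 0.14 (unadjusted p = 0.0145), it lay far above background, and the same difference without high RFI replicate 8 was 0.35. High RFI replicate 4 was the only high-score array below the low-score median of B2M.

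Among the pig class I heavy chains SLA-11 differed by 0.23 ± 0.11 and SLA-6 by 0.21 ± 0.13, while SLA-8 differed by -0.23 ± 0.15. SLA genes are close copies of each other, and only 2 of 5 probe sets of SLA-11 and 3 of 4 of SLA-6 were higher, so cross-hybridisation between them cannot be told apart from their own signal. PSME1, an activator of the proteasome, differed by 0.19 ± 0.11, PSMB9, an immunoproteasome subunit, by 0.16 ± 0.11 with all 4 probe sets higher, and NLRC5, the factor that switches on class I genes, by 0.16 ± 0.14 with 1 of 3 probe sets higher. Class II genes, used by professional antigen-presenting cells, had 9 of 15 members higher with a median of 0.08. CTSS, a protease that trims the class II chaperone, differed by 0.25 ± 0.20, and the co-stimulators CD86 and CD80 by -0.45 ± 0.30 and 0.28 ± 0.20. Without low RFI replicate 10 PSMB9 and NLRC5 differed by 0.09 each and CD86 by -0.29. CTSS was 0.10 without low RFI replicate 8, and CD80 0.14 and SLA-8 -0.14 without high RFI replicate 8.

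**Figure D3:**
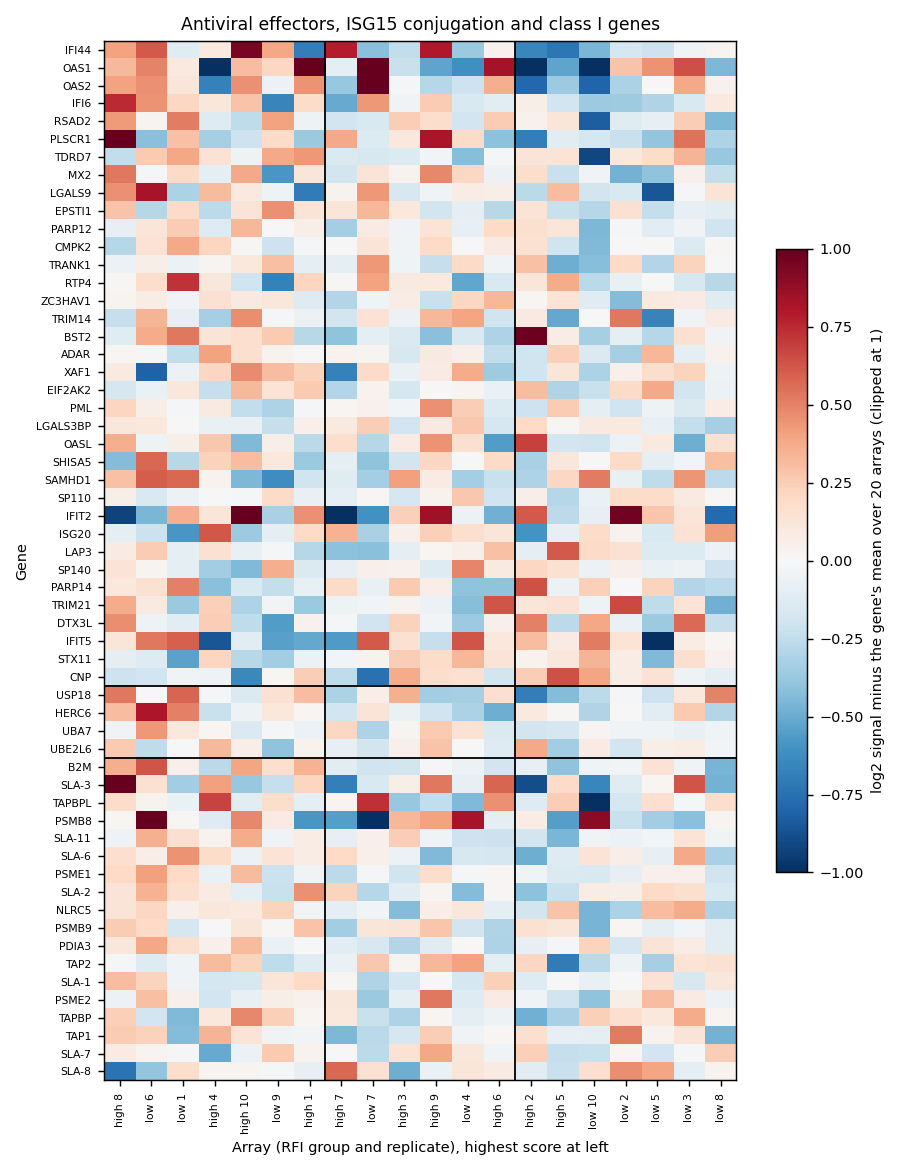
Background-adjusted log2 signal minus the gene's mean over 20 arrays (colour, clipped at 1 in either direction) for 36 antiviral effectors, 4 ISG15 conjugation genes and 18 class I genes (rows, sorted within each list by their difference), over arrays ordered from the highest score at left; vertical lines bound the 7 highest and 7 lowest arrays. No block of rows is uniformly red on the 7 arrays at left, and the strongest colours belong to single arrays.

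**Figure D4:**
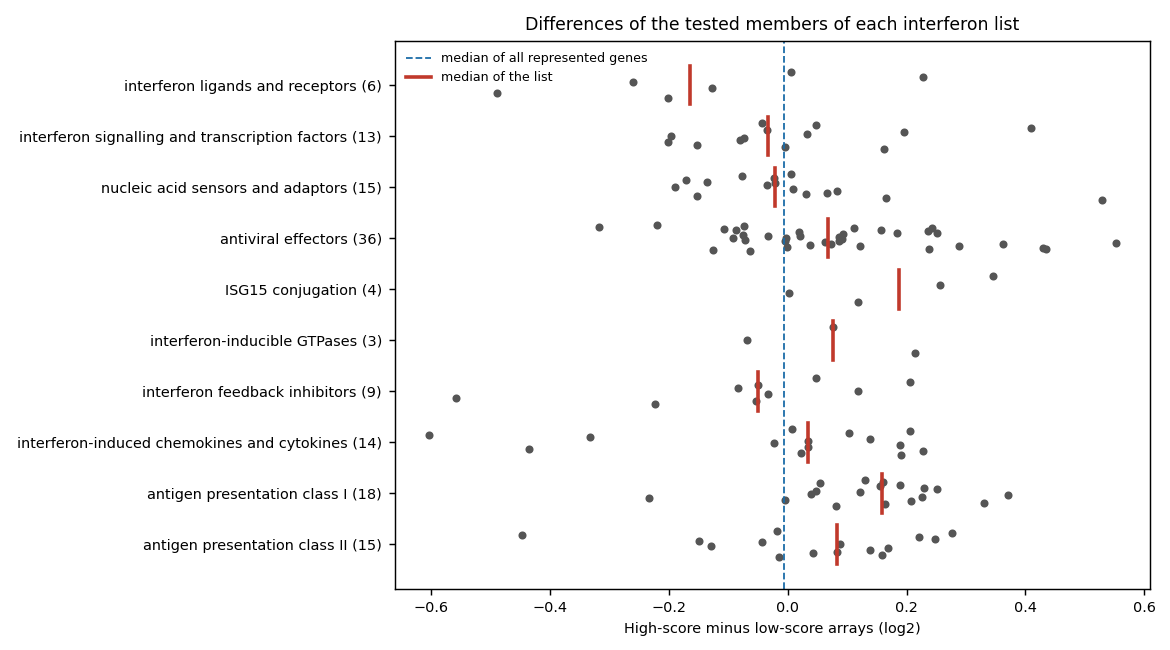
Difference between high-score and low-score arrays in log2 units for each tested member of the 10 interferon lists (points; number of members in brackets), with the list median in red and the median of all 12205 represented genes, -0.01, as a dashed line. Medians run from -0.17 for ligands and receptors to 0.19 for ISG15 conjugation.

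High RFI replicate 8 stood apart in the score, though not in each score gene: its MX1 signal of 4.94 was matched by low RFI replicate 6 and its IFIT3 signal of 3.88 lay beside 3.81 in high RFI replicate 4. Without it the interferon lists had 75 of 133 members higher and a median of 0.03, the antiviral effectors 22 of 36 and 0.08, and class I genes 16 of 18 and 0.14. It was the highest of the 20 arrays for 8 of the 133 interferon genes, 6.02%, beside 4.01% of all represented genes. The largest such count, 13, belonged to low RFI replicate 4, an array of the middle. In all 5 arrays, only 1 of them with a high score, were each the highest for more interferon genes than high RFI replicate 8.

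Markers of other cell types were read for the same 14 arrays, since bulk signal cannot tell more cells of a type from more RNA per cell. MYLPF, a light chain of fast fibres, had a mean signal of 12.63 on an array whose highest value was 14.4. Macrophage and monocyte markers had 8 of 14 members higher, with a median of 0.07, and their mean level ran from 4.74 over 5.02 to 5.31 in high-score arrays and from 4.80 over 4.98 to 5.10 in low-score arrays. FCER1G, a signalling chain of Fc receptors, ran from 4.96 over 5.21 to 5.55 and from 4.80 over 4.93 to 5.08, a difference of 0.32 ± 0.11 (unadjusted p = 0.00912) with all 3 probe sets higher. VSIG4, a complement receptor of resident macrophages, differed by 0.43 ± 0.20 and AIF1 by 0.31 ± 0.17, but LYZ, or lysozyme, by -0.28 ± 0.18. None of these passed the test, and the part of macrophage markers in the interferon differences was not tested.

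T and NK cell markers had 10 of 15 members higher with a median of 0.08 and mean levels of 4.06 to 4.28 in high-score and 3.96 to 4.23 in low-score arrays. CD4, the co-receptor of helper T cells, differed by 0.35 ± 0.14 (unadjusted p = 0.0231), whereas CD247, the zeta chain of the T cell receptor, differed by -0.28 ± 0.14. Dendritic cell markers had 6 of 8 higher with a median of 0.13, among them CCR7, which guides migration to lymph nodes, at 0.36 ± 0.14 and TCF4, a factor of plasmacytoid dendritic cells, at 0.23 ± 0.10. Neutrophil and mast cell markers were lower in 7 of 7 members, with a median of -0.08, and KIT, the stem cell factor receptor of mast cells, at -0.39 ± 0.26. B and plasma cell markers had 3 of 6 higher. Within low RFI 3 of the 7 neutrophil and mast cell markers were higher, and no member of these lists passed the test.

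Vessel and connective tissue markers held few differences. Endothelial markers had 8 of 15 higher with a median of 0.01, although CLDN5, the tight junction protein of endothelium, differed by -0.44 ± 0.17 (unadjusted p = 0.0173) with all 3 probe sets lower. In the fibroblast and tendon list 5 of 12 were higher. TNMD, or tenomodulin, a marker of tendon cells, ran from 2.06 over 2.16 to 2.34 in high-score arrays and from 1.70 over 1.88 to 1.93 in low-score arrays, with no overlap, at 0.33 ± 0.08 on a signal below background. Only 8 probe sets of the 33398 were higher without overlap (0.024% of those tested). PDGFRA, a receptor of fibroblasts and fat precursors, differed by -0.26 ± 0.13. Adipocyte markers had 9 of 15 higher with a median of 0.07, and PPARG, the master factor of fat cells, differed by -0.38 ± 0.20. Smooth muscle markers had 5 of 8 higher, red blood cell markers 2 of 6, nerve markers 5 of 9 and satellite cell markers 3 of 8.

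Over all 14 arrays, slow fibre genes had 9 of 12 members higher with a median of 0.06, a value that joins opposite directions in the RFI groups. Within low RFI 1 of 12 was higher with a median of -0.24, and within high RFI 12 of 12 with a median of 0.45. The mean level of the 12 genes was 8.29, 8.67 and 8.88 in the high-score and 8.02, 8.84, 8.90, 9.31 and 9.39 in the low-score arrays of low RFI, which overlapped. In high RFI it was 8.91, 8.96, 9.01 and 9.53 in the high-score and 8.59 and 8.71 in the low-score arrays, with no overlap. The middle arrays of high RFI read 8.21, 8.54, 8.87 and 9.23, across both groups. How often 4 against 2 arrays separate over all genes was not counted. In the limma fit of the difference between RFI groups, 2 of the 12 had an unadjusted p under 0.05, beside 1572 of all 33398 probe sets. They were TNNI1 and TNNT1, the slow troponin I and T (0.0148 and 0.0424), and both were named after their values were seen. None of the 12 passed limma's test (smallest adjusted p 0.990). Fast fibre genes had 2 of 13 higher with a median of -0.06, and medians of -0.04 within each RFI group. MYH2, the heavy chain of fast oxidative fibres, ran from 9.15 over 10.15 to 10.84 in high-score arrays and from 10.08 over 10.65 to 10.81 in low-score arrays, a difference of -0.56 ± 0.26 (unadjusted p = 0.0429), and MYLPF differed by -0.12 ± 0.09. Oxidative phosphorylation genes had 13 of 17 higher with a median of 0.06. Among its members COX7C, a small subunit of cytochrome oxidase, ran from 6.05 over 6.12 to 6.26 and from 5.45 over 5.59 to 6.30, a difference of 0.40 ± 0.12 (unadjusted p = 0.0042), and COX6C differed by 0.35 ± 0.15. Only 1 low-score array reached the COX7C values of the high-score arrays.

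Fatty acid oxidation genes had 14 of 23 higher, NF-kappaB and acute phase genes 6 of 16, cell cycle genes 6 of 15 and heat shock and unfolded protein genes 5 of 16, the last with a median of -0.10. Genes of ubiquitin ligases and muscle wasting had 8 of 18 higher with a median of -0.05, and CEBPD, a stress-induced transcription factor, differed by -0.45 ± 0.25. The slow fibre genes moved together strongly over the 20 arrays, with a mean pairwise correlation of 0.66, so their count stands for few independent observations.

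The 24 genes of smallest p outside the interferon lists came from many functions. Higher in high-score muscle were MORN3 by 0.52 ± 0.12, METTL14, a partner of the RNA methyltransferase that writes m6A, by 0.45 ± 0.11, and CLN8, an endoplasmic reticulum protein that exports lysosomal enzymes, by 0.46 ± 0.12. Next came TNMD, then CUL5, the cullin scaffold of a ubiquitin ligase, at 0.49, HEMK1 at 0.44, ZSWIM5 at 0.42 and NAPEPLD, which makes anandamide-type lipids, at 0.54. HMGB4 at 0.36, JKAMP at 0.34, GPT2, the mitochondrial alanine aminotransferase, at 0.33 and PHLDB3 at 0.32 followed. For JKAMP the groups did not overlap, 4.55 to 4.89 in high-score and 4.07 to 4.52 in low-score arrays.

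Lower in high-score muscle were RNF32 by -0.43 ± 0.10, GABRE, a GABA receptor subunit, by -0.39 ± 0.10, IQCE by -0.55 ± 0.15 and ITGB3, the integrin beta chain of platelets and vessels, by -0.44 ± 0.12. OVGP1 at -0.44, NSFL1C, the p47 cofactor of the p97 ATPase, at -0.30, GPR83 at -0.59 and KLF16 at -0.36 came next. The others were TMEM231 at -0.37, ACVR1B, an activin receptor that also takes myostatin signals, at -0.50 with all 3 probe sets lower, FAM166A at -0.49 and GNA12, a G protein subunit, at -0.31. For NSFL1C the groups did not overlap, 2.99 to 3.32 against 3.34 to 3.63, as for 12 of the 33398 probe sets on the lower side (0.0359% of those tested). None of these 24 genes passed limma's test, with adjusted p no smaller than 0.999.

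Within each RFI group the comparison was repeated on fewer arrays. Within low RFI, 3 high-score against 5 low-score arrays, limma called 0 of 33398 probe sets (percent called 0), with a smallest adjusted p of 0.510 and 1892 probe sets at an unadjusted p under 0.05. Within high RFI, 4 against 2 arrays, limma called 0 of 33398 (percent called 0), with a smallest adjusted p of 0.527 and 1194 at an unadjusted p under 0.05. Interferon members were higher in 81 of 133 within low RFI, with a median of 0.08, and in 79 of 133 within high RFI, with a median of 0.05. In both groups 49 were higher and 22 lower. Over all 12205 represented genes, 5862 were higher within low RFI and 6221 within high RFI, with 2959 higher and 3081 lower in both. Antiviral effectors were higher in 26 of 36 within low RFI and in 19 of 36 within high RFI, and class I genes in 13 and 16 of 18. All these arrays entered the choice by score, so these counts carry the same dependence.

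DDX58 read 4.81, 4.35 and 4.18 in the 3 high-score arrays of low RFI and 4.28, 4.27, 4.11, 3.66 and 3.29 in the 5 low-score arrays, a difference of 0.52. Within high RFI it read 4.88, 4.61, 4.58 and 4.13 in the high-score arrays and 4.16 and 4.05 in the low-score arrays, a difference of 0.44. Both RFI groups overlapped, in each case by 1 high-score array. B2M read 10.42, 9.96 and 9.84 against 9.94, 9.77, 9.75, 9.74 and 9.32 within low RFI, and 10.19, 10.15, 10.14 and 9.53 against 9.71 and 9.39 within high RFI. Its differences were 0.37 and 0.45, again with overlap. IFI44 differed by 0.47 and 0.88, OAS2 by 0.31 and 0.74, USP18 by 0.22 and 0.73 and IFNAR2 by -0.43 and -0.43.

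RSAD2 and HERC6 were higher with the score in low RFI, by 0.56 each, and differed by -0.08 and -0.04 in high RFI. HERC6 read 4.90, 4.59 and 4.19 in the high-score arrays of low RFI and 4.35, 4.09, 3.98, 3.80 and 3.78 in the low-score arrays. The difference between RFI groups was tested with an interaction term. Limma called 0 of 33398 probe sets (percent called 0), with a smallest adjusted p of 0.160 and 1572 at an unadjusted p under 0.05. Of the 133 interferon genes 8, or 6.02%, had an unadjusted interaction p under 0.05 by limma. This stands beside the 1572 of all 33398 probe sets, of which 5% is 1670.

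BST2 and TLR3 were among those 8. BST2, or tetherin, which holds budding virus at the cell surface, differed by 0.51 within low RFI and by -0.56 within high RFI (interaction 1.06 ± 0.30, limma unadjusted p = 0.00297). In high RFI the opposite direction came largely from high RFI replicate 2, a low-score array that read 5.70, the highest BST2 value of the series. TLR3, the endosomal receptor of double-stranded RNA, differed by 0.68 and -0.68 (interaction 1.36 ± 0.43, unadjusted p = 0.00621). Within high RFI the low group holds only 2 arrays, so its differences rest on few animals.

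**Figure D5:**
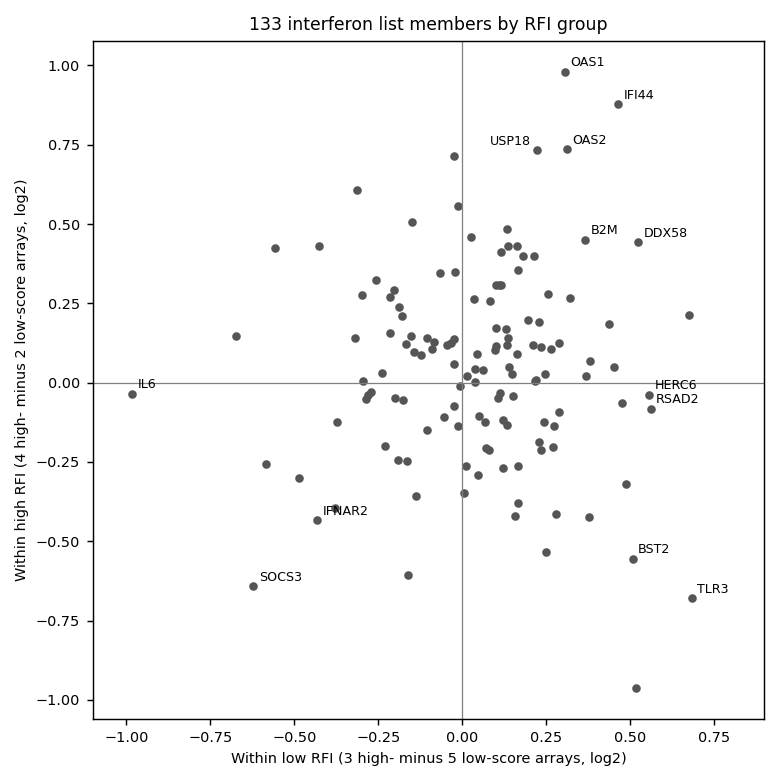
Difference between high-score and low-score arrays within low RFI (horizontal, 3 against 5 arrays) and within high RFI (vertical, 4 against 2 arrays), in log2 units, for the 133 tested interferon list members, with some genes named. DDX58, B2M, IFI44, OAS1, OAS2 and USP18 are higher on both axes, IFNAR2 and SOCS3 lower on both, and BST2 and TLR3 differ in sign.

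Array quality measures were close between the score groups. The background control mean was 3.66 ± 0.13 (SD, n = 7) in high-score and 3.61 ± 0.13 (SD, n = 7) in low-score arrays, the polyadenylated spike-in mean was 8.49 ± 0.26 and 8.64 ± 0.36, and the median log2 signal was 2.85 ± 0.02 and 2.84 ± 0.03. Without the background regression, 5 of the 7 high-score and 7 of the 7 low-score arrays were chosen again.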

How the data were processed

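The authors deposited 1 table of log2 signals for 47845 probe sets on 20 arrays. Its log2 scale was read from the values, which ran from 0.143 to 14.4. Per the submitters' processing notes GCOS 1.1.1 was used; summarisation, background correction and normalization are not given in the sources used here. Array means lay between 3.33 and 3.35, so values were taken as already normalized between arrays.

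Gene symbols came from the platform annotation (26426 probe sets with 1 symbol, 0 with several, 21419 with none), of which 428 were updated through RefSeq synonyms. A gene is its probe set of highest mean. Every probe set was regressed over the 20 arrays on the mean of the 69 background control probe sets, and the residual plus the gene's mean is the adjusted signal. Control probe sets, probe sets of the 4 score genes, and those at or below the 30th percentile of means (1.75) were not tested. Fits on residuals did not count the regression as a lost degree of freedom. An alternative with the background control mean as a covariate in limma did count it, and called 0 probe sets between high-score and low-score arrays. Comparisons used limma 3.58.1 (lmFit and eBayes, both sides) run under R 4.3.3. The p-values were adjusted by Benjamini and Hochberg's method across every probe set tested, and 0.05 was the threshold. The exact rank sum test stood beside it. The procedure was tested on simulated data.

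The background control mean of 3.64 was exceeded by the means of 55.7% of the tested probe sets, and differences of dimmer ones are compressed. The number of arrays limits the precision. Each array was taken as 1 animal, as the design gives 10 pigs per RFI group; replicate numbers follow accession order and only name arrays. Named were any measured interferon list member, up to 4 members by smallest p of each of 12 cell type and 8 muscle lists, and the 12 genes higher and 12 lower of smallest p outside the interferon lists. The members, the score genes and the lists were chosen with earlier results of these data known.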

Additional observations from a re-analysis of the deposited data

Results flagged for a closer look

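Of 64 groups of 7 or 10 arrays examined for a single array far from the rest, 3 had one, and chance marks about 1 in 20. The groups covered the score, the 4 score genes, the background control mean and the genes with values given per array. The score of high RFI replicate 8 was 0.796 where the next array of high RFI read 0.284, a gap of 0.506 of the group's range against a critical value of 0.466. OAS1 in high RFI replicate 4 read 3.69 where the next lowest of the 7 high-score arrays read 5.26, a gap of 0.633 of the range. CNP in low RFI replicate 7 read 3.50 where the next lowest array of low RFI read 4.06, a gap of 0.485 of the range.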

How the results depend on the processing

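Between high-score and low-score arrays 0 probe sets were called in all 30 alternatives run, 29 with limma and 1 with the rank sum test, with smallest adjusted p from 0.0715 to 1 and 1056 to 2254 probe sets at an unadjusted p under 0.05. The median difference ranged from 0.0005 to 0.08 for all interferon lists and from 0.02 to 0.11 for the antiviral effectors. The score without IFIT1, IFIT3, MX1 or ISG15 chose 5 to 7 of the same high and 5 to 6 of the same low arrays. Leaving out 1 array at a time gave 0 to 4 calls within low RFI and 0 to 2 within high RFI. The 4 came without low RFI replicate 1 (adjusted p from 0.0127): HADH at -1.97 and 3 probe sets with no symbol at 1.46, -1.87 and 1.62. The 2 came without high RFI replicate 5, which left 1 low-score array assumed to vary like the others (adjusted p from 0.0084): CYP21A2 at 4.11 and a probe set with no symbol at 2.96. These 6 were named after their values were seen.

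Leaving out 1 array moved 27 of the 87 named differences by over 1.5 times, none of them called. Some named differences changed sign, and the cause was not tested. With the score without MX1, TLR3 was -0.267, STAT2 0.0219, IRF9 0.0617, CTSS -0.162, FCER1G -0.0311 and VSIG4 -0.0652. Without ISG15 in the score, IFIT2 was 0.0926 and OASL 0.176; without IFIT1, IFIT5 was 0.0604 and OASL 0.191; without IFIT3, IFIT5 was 0.0309 and OASL 0.0485. With 5 against 5 arrays OAS1 was -0.0093, IFIT5 0.112, OASL 0.139 and STAT2 0.0604, and with 10 against 10 CXCL16 was -0.0208. With no background regression IFIT5 was 0.0768, OASL 0.0663 and BST2 -0.0208. Array weights gave OASL 0.0324. The slope on the score was 0.0451 for IFIT5, 0.21 for OASL and 0.0073 for CCL2. Leaving out 1 array at a time took TLR3 from -0.122 to 0.185, IFIT2 from -0.249 to 0.0993, OASL from -0.0834 to 0.113 and IRF9 from -0.0758 to 0.0184. No paired analysis was possible because the labels number the animals singly and give no number shared between groups.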
